A study of Caenorhabditis elegans with 2 samples.

Results

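The binding of tagged ATHP-1 at its own gene was examined at 3 genes of chromosome III in Caenorhabditis elegans: athp-1 and the neighbours C44B9.2 and C44B9.3, of 19973 protein-coding genes on chromosomes I to V and X. The genes were chosen by position, because athp-1 encodes the captured protein, and regions were taken when their summit lay within 20 kb of athp-1. Chromatin immunoprecipitation and sequencing (ChIP-seq) had been done with anti-GFP on whole worms of strain OP685, genotype unc-119(tm4063) III; wgIs685. These were young adults of mixed sex, 64 hours after growth began from starved L1 larvae. The integrated transgene wgIs685 carries athp-1 with a GFP-FLAG tag at the carboxy terminus, and both libraries came from this 1 strain. There was 1 group of 2 biological replicates, with no second condition or untagged worms among the samples analysed here, so values are given for each list and no p-value is given. The authors deposited a list of 30000 regions for each replicate, a pooled list of 30000 regions called on both, and a reproducible list of 1649 regions. The pooled list was deposited as peaks together with background, so a summit in it alone is not a call of binding. At this locus its −log10 q-values, low where evidence is weak, ran from 0.094 to 3.44. They ran from 0.0554 to 2.94 in replicate 1 and from 0.0374 to 2.72 in replicate 2. Within 20 kb of athp-1 these lists held 28 summits (replicate 1), 20 (replicate 2), 22 (pooled) and 5 (reproducible). Each of these 5 reproducible regions had the same summit, signal and rank in the pooled list. At this locus the reproducible and pooled values are therefore the same measurements and not separate results.

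The name athp-1 stands for AT-hook plus PHD finger, and RefSeq describes its product as a protein with a PHD-type domain. An AT-hook is a short peptide that lies in the minor groove of AT-rich DNA, and a PHD finger is a zinc-binding fold that in many proteins reads the methylation state of the histone H3 tail. Some regulators bind their own gene, and ChIP-seq of a tagged protein can list such a site. In strains that carry a tagged gene as a transgene, that gene and some of its flanking DNA may be present in additional copies. The extent of wgIs685 and its copy number were not given in the sources used here. Reads from the chromosomal locus and from the transgene have the same coordinates, so the 2 sources cannot be told apart in any value below.

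The following sequences are those of the 2 strongest sites of the locus and, for comparison, of a coding exon listed in replicate 1 alone. All are from the RefSeq assembly of WBcel235 (ce11), plus strand, written 5′ to 3′. Capitals mark the words AAGGCGCA and CTACNGTA on either strand; in the first sequence 2 matches to the latter overlap each other, and no match to one word overlaps a match to the other. The first is a whole region of 290 bp, chrIII:10877604-10877893, and the others reach 50 bp to each side of a summit, at chrIII:10881593-10881693 and chrIII:10888885-10888985.
C44B9.2 intron peak: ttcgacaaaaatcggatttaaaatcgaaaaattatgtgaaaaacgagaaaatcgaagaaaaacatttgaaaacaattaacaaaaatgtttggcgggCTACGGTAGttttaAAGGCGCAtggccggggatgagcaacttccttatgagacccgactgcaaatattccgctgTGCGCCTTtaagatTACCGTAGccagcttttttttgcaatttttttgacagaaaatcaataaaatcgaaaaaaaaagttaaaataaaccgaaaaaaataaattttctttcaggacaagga
athp-1 upstream peak: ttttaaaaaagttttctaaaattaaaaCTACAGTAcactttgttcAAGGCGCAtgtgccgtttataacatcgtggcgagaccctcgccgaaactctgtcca
athp-1 exon 9 region: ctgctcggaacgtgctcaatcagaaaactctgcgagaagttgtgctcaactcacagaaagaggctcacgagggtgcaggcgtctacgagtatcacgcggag

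The 5 reproducible summits of the locus fell into 2 places, the 3′ part of C44B9.2 and the 5′ end of athp-1. C44B9.2 held 2 of them, athp-1 held 3 in or just before its first exon and first intron, and C44B9.3, which lies between these genes, held 0. Having 5 or more reproducible summits within 20 kb was uncommon: 252 of the 19973 protein-coding genes (1.26%) met this. The median gene had 0 and the upper quartile was 1. Long genes have a wider window, and per kb of window 1.92% of genes reached the value of athp-1. The 3 regions at the athp-1 5′ end overlap one another, so the 5 summits are not 5 separate sites. Overlapping regions were not merged in these counts, for athp-1 or for other genes. The pooled count of 22 was less unusual, since 14.2% of genes had at least as many, with a median of 13. In replicate 1 the count of 28 was reached by 2.71% of genes and in replicate 2 the count of 20 by 16.6%. Per kb of window these shares were 7.35% in replicate 1, 27.5% in replicate 2 and 23.9% in the pooled list. The region scores of the locus lay near those of the lists as a whole. The median signal, the authors' score for a region, was 40.9 at the locus against 38.7 in the pooled list. It was 27.4 against 23.2 in replicate 1 and 29.4 against 23.5 in replicate 2. In the plot of listed regions along the locus, the right side, beyond the athp-1 first intron and as far as unc-119, held no reproducible summit.

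**Figure D1:**
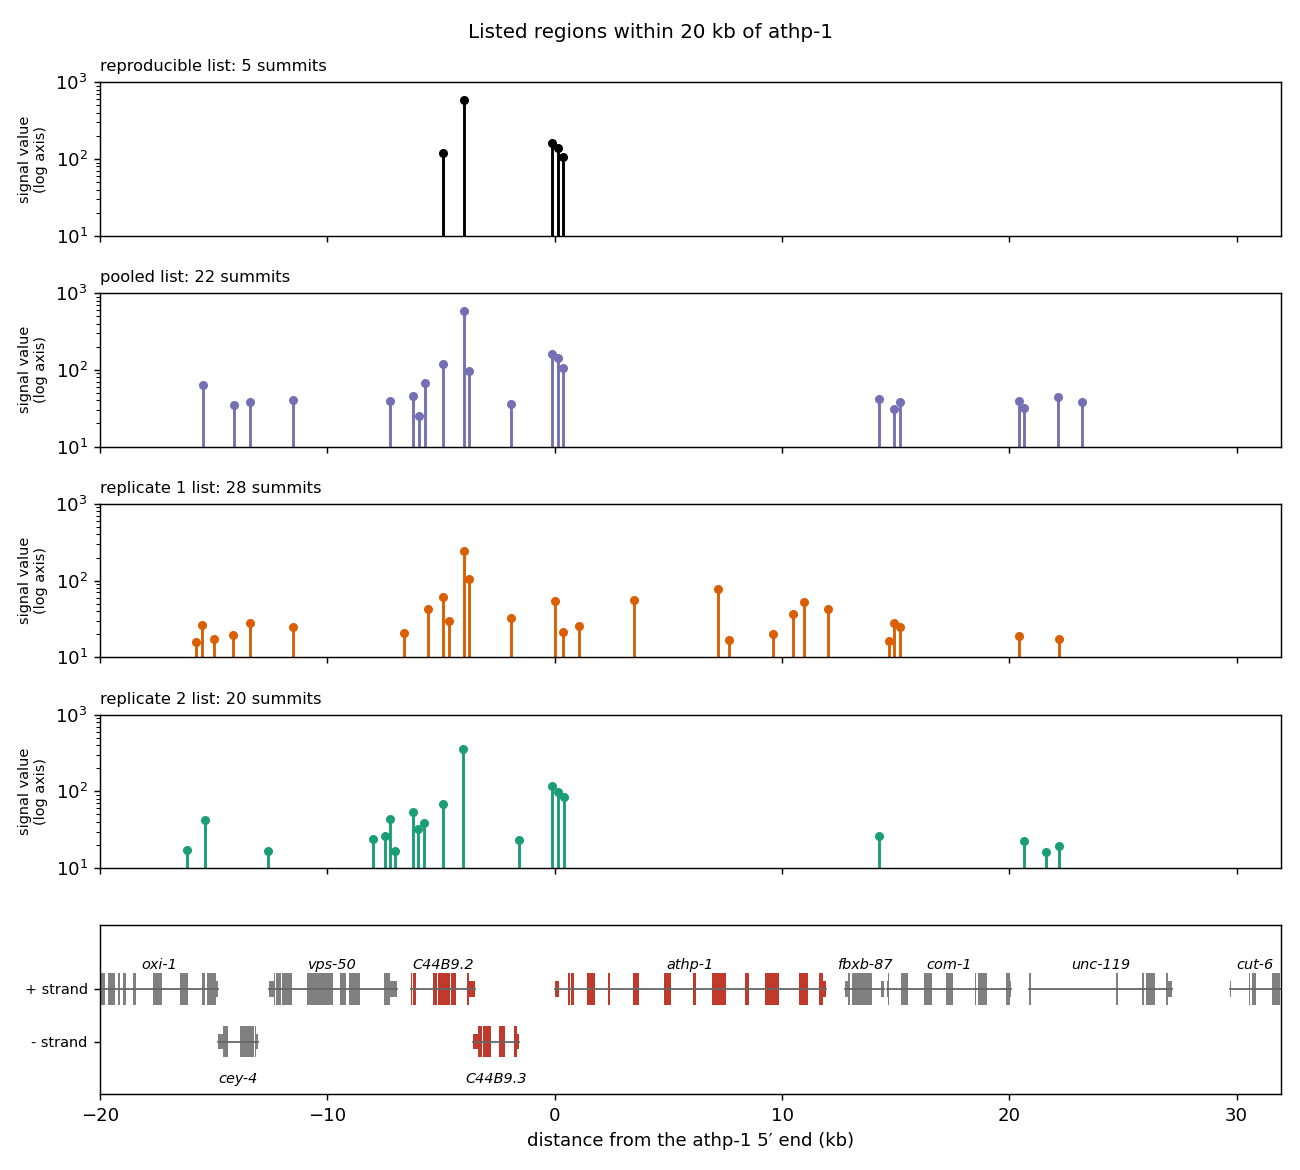
Signal value (log axis) of each listed region against the distance of its summit from the athp-1 5′ end in kb, for the reproducible, pooled, replicate 1 and replicate 2 lists, above the gene models (tall boxes are coding, low boxes untranslated; athp-1, C44B9.2 and C44B9.3 in red). The tallest line in each list is the summit inside C44B9.2, at 593 in the reproducible and pooled lists, 241 in replicate 1 and 357 in replicate 2. Replicate 1 alone has lines along the athp-1 gene body past its first intron.

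**Figure D2:**
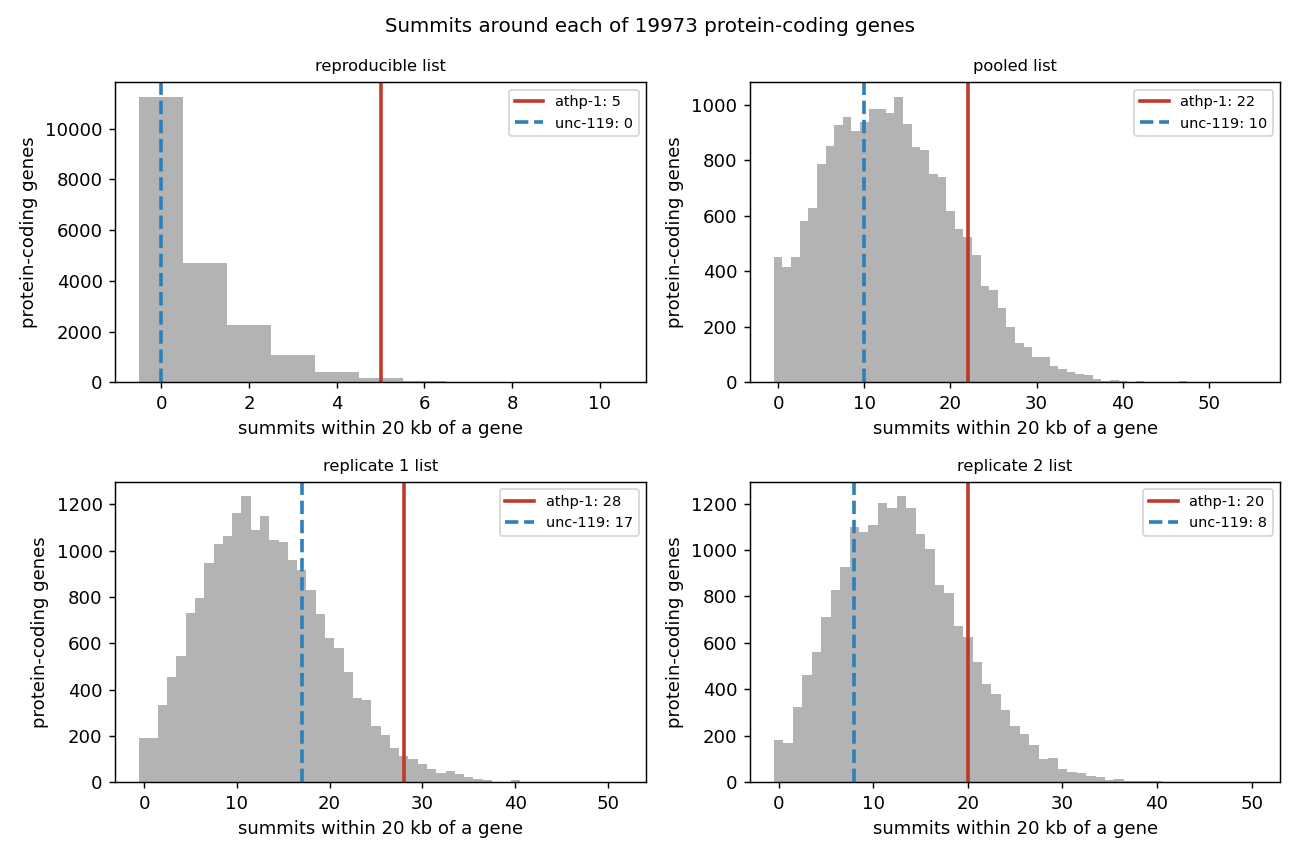
Number of protein-coding genes (vertical axis) by the number of summits within 20 kb of the gene (horizontal axis) in each list. Lines mark athp-1 (5, 22, 28 and 20 summits in the reproducible, pooled, replicate 1 and replicate 2 lists) and unc-119 (0, 10, 17 and 8), against a median of 13 in the last 3 of these lists.

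The strongest region of the locus lay not at athp-1 but inside C44B9.2, in the last intron of that gene. C44B9.2 (WBGene00008079, plus strand, chrIII:10875432-10878242) is annotated by RefSeq as encoding a protein with an Lgl_C domain. The summit of its intron peak was at 10877772 in the reproducible and pooled lists, with a signal of 593 and rank 9 of 30000 pooled regions. In replicate 1 the summit was at 10877781 with a signal of 241 and rank 9, and in replicate 2 at 10877750 with a signal of 357 and rank 7. Both replicates thus listed this intron among their 10 strongest regions, with summits 31 bp apart. A reproducible summit among the 20 strongest lay between the ends of 6 protein-coding genes (0.03%), C44B9.2 among them. Because 20 summits can lie in few genes, this share is low by construction and adds nothing to the rank of 9. The summit was 2340 bp downstream of the C44B9.2 5′ end, the nearest annotated 5′ end of a protein-coding transcript. The 10 genes that Ensembl lists with a part within 20 kb of athp-1 are all protein-coding.

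C44B9.2 held a second, weaker reproducible summit in coding exon 4, at 10876870, whose region was entirely coding sequence. Its signal was 120 (rank 1246) in the pooled list, 62.0 (rank 1173) in replicate 1 and 68.4 (rank 1198) in replicate 2. The replicates placed this exonic summit 18 bp apart and at nearly the same rank. A region in coding exon 6, beside the intron peak, was listed with a signal of 105 (rank 261) in replicate 1 and 95.6 (rank 2021) in the pooled list. Replicate 2 had no summit within 200 bp of the replicate 1 summit there. In intron 2 the pooled list had a signal of 68.2 (rank 4202), with 43.0 (rank 2973) in replicate 1 and 38.3 (rank 4771) in replicate 2. No reproducible summit lay in the C44B9.2 promoter window, which runs from 500 bp before to 200 bp after a 5′ end. Its strongest listed signal was 45.7 (rank 10673) in the pooled list, 21.0 (rank 18458) in replicate 1 and 53.1 (rank 2178) in replicate 2, and the replicate 1 summit was a different one, upstream of the start. The −log10 q-values were 0.483 (pooled), 0.183 (replicate 1) and 2.46 (replicate 2). In the pooled list and in both replicate lists the promoter of this gene ranked far below its last intron.

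At athp-1 itself, ATHP-1-GFP was listed at the promoter and in the first intron. athp-1 (WBGene00008081, plus strand, chrIII:10881766-10893696) is 11931 bp long, and its 2 annotated transcripts begin at 10881766 and 10882360. The pooled summits were at 10881643, 123 bp upstream of the first start; at 10881910, in the untranslated first exon; and at 10882148, in the first intron and 212 bp upstream of the second start. Their signals were 162 (rank 582), 141 (rank 846) and 106 (rank 1625), and neighbouring summits were 267 and 238 bp apart, so each region overlaps the next. With these, athp-1 alone of the 3 members was bound at the promoter window, where 4.71% of all protein-coding genes were called. It was the 1 gene of 19973 (0.00501%) with 3 or more reproducible summits in its promoter windows, a count taken after the values were seen; 28 genes had 2 or more. The pair of starts gives athp-1 a longer stretch of window than a gene with 1 start.

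The replicates differed in how firmly they listed the athp-1 promoter. Replicate 2 had 3 summits, at 10881623, 10881892 and 10882154, with signals of 118 (rank 295), 98.0 (rank 470) and 85.4 (rank 678). Replicate 1 had 2, at 10881778 with a signal of 54.0 (rank 1676) and at 10882139 with a signal of 21.4 (rank 17701). The replicate 1 summit at 10881778 lay between the first and second summits of replicate 2. It ranked just outside the 1649 strongest regions, so with replicate 1 alone held to that number 0 members were bound at the promoter, where 4.2% of genes were called. With as many regions of replicate 2 alone athp-1 was bound, where 5% of genes were called. All 3 of the replicate 2 summits, and 0 of the 2 of replicate 1, were thus among the 1649 strongest regions of their list.

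**Figure D3:**
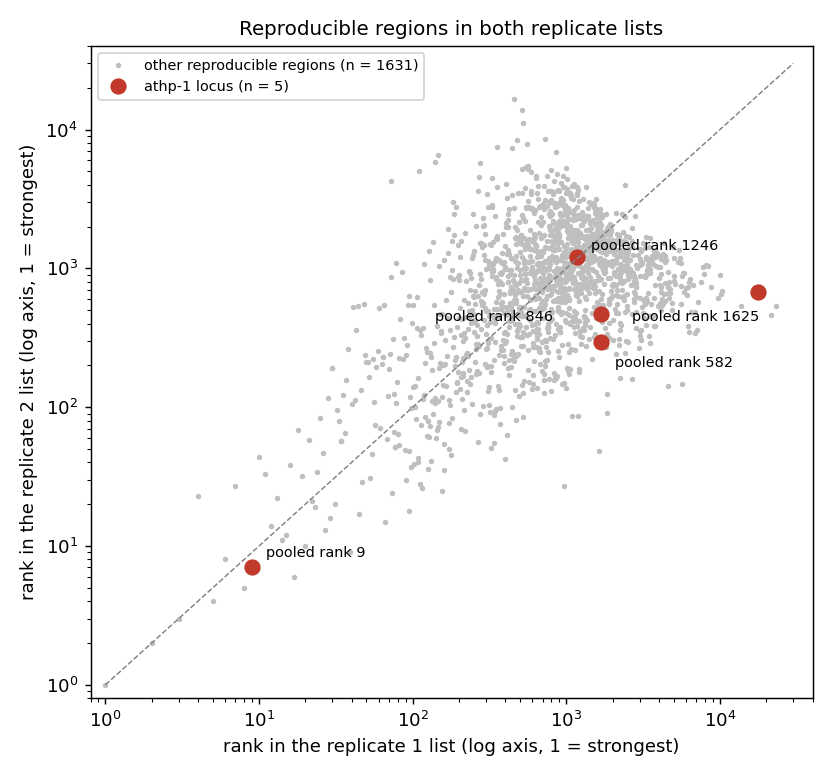
Rank in replicate 1 (horizontal, log axis) against rank in replicate 2 (vertical, log axis) of the strongest summit within 200 bp of each reproducible summit, for the 5 of the athp-1 locus (red) and the others (grey); the dashed line marks equal rank. The C44B9.2 intron (pooled rank 9) and exon (pooled rank 1246) lie near the line, and the athp-1 promoter summits (pooled ranks 582, 846 and 1625) lie below it, with better ranks in replicate 2.

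Against the whole reproducible list, the gap between replicates was wide for the first-intron summit of athp-1. Of 1636 reproducible summits with a partner within 200 bp in both replicates, 61 (3.73%) had ranks more than 10 times apart, and that summit was among them (17701 against 678). Across the list neither replicate was favoured, with 802 summits ranked higher in replicate 1 and 831 in replicate 2. At the locus 1 was ranked higher in replicate 1 and 4 in replicate 2, but the first and second athp-1 summits share 1 partner in replicate 1 (rank 1676), and the C44B9.2 intron differed by rank 9 against 7 alone. Of the 22 pooled summits of the locus, 4 had a summit within 100 bp in both replicates (18.2%, against 28.8% of the whole pooled list), 9 in replicate 1 alone and 8 in replicate 2 alone. That contrast with the whole list rested on the distance used: within 200 bp the shares in both replicates were 40.9% at the locus and 41.1% over the list, and by overlap of regions 63.6% and 54.9%.

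Replicate 1 listed the body of athp-1 past the first intron, which neither replicate 2 nor the pooled list did. Between the athp-1 ends replicate 1 had 9 summits, 2 at the promoter and 7 further along the gene that overlapped no pooled region. The strongest of the 7 was in coding exon 9 at 10888935, with a signal of 78.4 (rank 621). The next were in coding exon 6 at 10885233, with a signal of 55.3 (rank 1559), and in coding exon 12 at 10892750, with a signal of 52.7 (rank 1779). The exon 6 and exon 9 summits had more signal in replicate 1 than either of its summits at the athp-1 5′ end (54.0 and 21.4), and the exon 12 summit lay between them. Another coding summit lay in exon 11 (signal 20.1, rank 20081). The other 3 were in introns, with signals of 37.1 (rank 4486), 25.4 (rank 12191) and 16.9 (rank 27092). The −log10 q-values were 2.39, 2.17 and 2.19 at exons 9, 6 and 12. They were lower at exon 11 (0.155) and at the introns (1.26, 0.354 and 0.0761), so not all of the 7 are well supported. In all, 4 of the 7 were in coding exons, which make up 28.9% of the gene. The count is small and was not set against the share of coding summits in other genes, so no preference for exons is read from it. An eighth region without a pooled partner lay 89 bp past the 3′ end, with a signal of 42.3 (rank 3134).

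**Figure D4:**
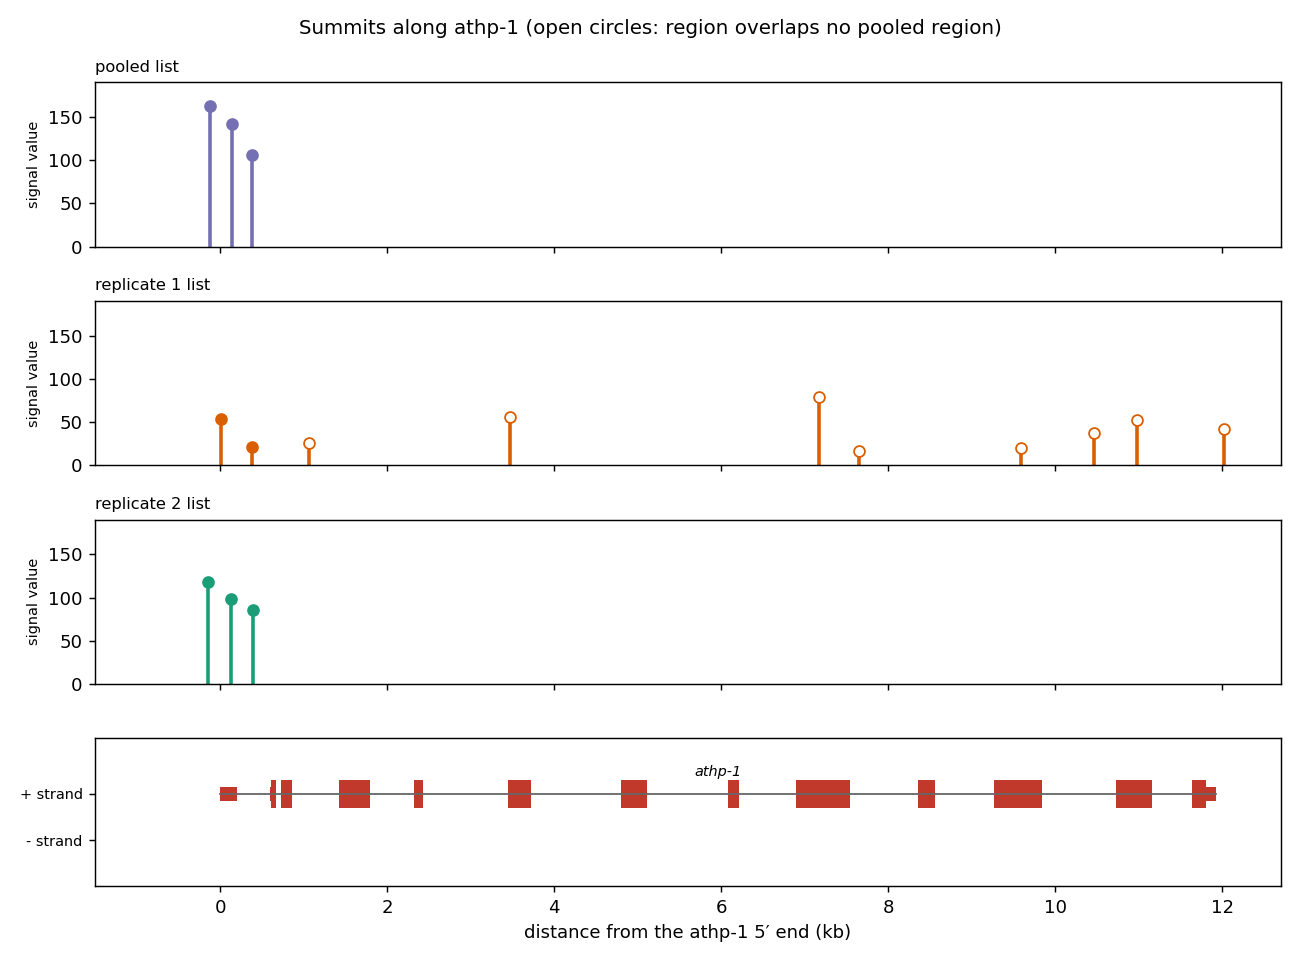
Signal value of each summit along athp-1 against distance from its 5′ end in kb, for the pooled, replicate 1 and replicate 2 lists, above the gene model (tall boxes are coding, low boxes untranslated; exons count from the left, exon 9 near 7 kb). Open circles are replicate 1 regions that overlap no pooled region; they run from the third intron to just past the 3′ end, with the highest in exon 9 (78.4), and the pooled and replicate 2 lists have no summit there.

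Strong replicate 1 regions with no pooled partner were rare elsewhere. Of the 2000 strongest regions of replicate 1, 36 (1.8%) overlapped no pooled region, and 16 genes (0.0801%) held at least 1 of them. athp-1 held 3, and no other gene held more than 1; the share of genes with 3 was 0.00501%. Among the 2000 strongest of replicate 2 there were 31 such regions (1.55%), athp-1 held 0 and the highest count was 2. The cut at 2000 was chosen after the values were seen; with the 5000 strongest of replicate 1, athp-1 held 4, again the highest count of any gene. With the 1000 strongest athp-1 held 1, as did 3 other genes, and without a limit on rank it held 7, as many as or fewer than 6 other genes. athp-1 thus stood above all other genes at the cuts of 2000 and 5000 and at neither of the other cuts. The pooled list had no summit for 13.9 kb from the first intron of athp-1 to fbxb-87, and replicate 2 none for 13.9 kb. Such a stretch is not rare, since 4.86% of the gaps between pooled summits were as long or longer. A run of 8 or more neighbouring replicate 1 regions without a pooled partner, as at athp-1, occurred 17 times among 4747 runs. Runs were counted whatever the q-values of their regions, and the run at athp-1 includes weak ones. The copy number of athp-1 in each library was not measured, and its part in these values was not tested.

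C44B9.3, the gene between the bound sites, had weak regions alone. C44B9.3 (WBGene00008080, minus strand, chrIII:10878188-10880183) is annotated by RefSeq as encoding a protein with a C2 domain, and its 5′ end faces athp-1 across 1582 bp. It had 0 reproducible summits in its promoter window or between its ends. In its first intron the pooled list had a signal of 35.7 (rank 17510) and replicate 1 had 32.6 (rank 6404). Replicate 2 had none there, and instead had a summit 31 bp upstream of the C44B9.3 5′ end with a signal of 23.3 (rank 15346). The −log10 q-values of these summits were 0.237 (pooled), 0.806 (replicate 1) and 0.225 (replicate 2). Of the 3 members, 2 thus had a reproducible summit between their ends, against 3.06% of protein-coding genes, a share not adjusted for gene length. With 500 bp upstream included the count was also 2 of 3, against 6.62% of genes.

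The remaining genes within 20 kb had no reproducible summit. Their pooled summits within 20 kb of athp-1 had −log10 q-values from 0.164 to 1.25. To the left, the strongest pooled summit was in coding exon 12 of oxi-1, a predicted ubiquitin ligase gene, with a signal of 63.0 (rank 5082); it was 26.4 (rank 11051) in replicate 1 and 41.8 (rank 3812) in replicate 2. cey-4, which encodes a cold shock domain protein, and vps-50, a vesicle trafficking gene, had pooled summits ranked between 14057 and 18690. To the right, fbxb-87, an F-box gene, and com-1, which acts in the repair of meiotic DNA breaks, had pooled summits ranked between 12839 and 22036. cut-6, a cuticlin gene, had no listed summit between its ends. unc-119, which is mutated in this strain and whose wild-type copy commonly serves to mark such transgenes, starts 8944 bp past the athp-1 3′ end. Its strongest pooled summit was in its first intron, with a signal of 43.6 (rank 11754); in replicate 1 that summit had 17.4 (rank 25683) and in replicate 2 it had 19.7 (rank 21206). Within 20 kb of unc-119 there were 0 reproducible and 10 pooled summits, the latter below the median of 13 for all genes. Replicate 1 had 17 there and replicate 2 had 8, each against a median of 13. This window reaches into the athp-1 body, so the counts are not separate from those of athp-1. Its strongest replicate 1 region was that of athp-1 exon 9 (rank 621).

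The bound sites of the locus were not alike in base composition. AT content over 150 bp on each side of the 5 reproducible summits was 54.2% at C44B9.2 exon 4, 64.5% at the C44B9.2 intron, 70.1% upstream of athp-1, 63.5% at its first exon and 68.4% in its first intron. Their median of 64.5% compares with 60.1% over all 1649 reproducible summits (quartiles 54.8 and 64.8%) and with 64.3% for chromosome III as a whole. Over 50 bp on each side the median was 55.4%, against 54.5% for all reproducible summits. The wider windows at the coding summits of replicate 1 had 62.8% (exon 6), 46.8% (exon 9) and 49.2% (exon 12).

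The 2 strongest bound sites shared a word of 8 bases, AAGGCGCA, which was picked after their sequences were read. In the C44B9.2 intron peak it occurs once on each strand, centred 55 bp and 5 bp from the pooled summit. The matches are part of an inverted repeat with exact arms of 11 bases, ttaaaggcgca, that are 52 bases apart. Matches to CTACNGTA lie just outside both arms, so in this peak both words belong to a longer inverted repeat with mismatches. Upstream of athp-1 it occurs once, centred 2 bp from the pooled summit. Windows of 150 bp on each side of a reproducible summit held the word, on either strand, in 71 of 1649 cases (4.31%), those of the pooled list in 2.08%, and tiles of the same length along chromosomes I to V and X in 1.02%. Within 20 kb of athp-1 it occurs 10 times, 3 times inside a reproducible region and 5 times inside a pooled region, so most copies at the locus carried no reproducible summit. The word CTACNGTA was commoner and was in 8.67% of reproducible windows against 5.86% of tiles. For both words, the tiles were not matched to the summit windows in base composition or masking. Lower-case (masked) bases in the RefSeq file, which mark repeats and simple sequence, made up 77.9% of the C44B9.2 intron peak and 58.4% of the athp-1 upstream window; the exon 9 window had 0%. The part of repeated sequence in the listed signals was not tested.

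Genes with a promoter pattern most like that of athp-1 were sought over the pooled, replicate 1 and replicate 2 lists, among 6140 genes with a pooled summit in the promoter window. The strongest athp-1 summit had no replicate 1 partner within 100 bp, and such cases were set to the lowest signal of that list. The nearest genes were fbxl-1 (distance 0.0504 in log10 signal over the 3 lists), drap-1 (0.0510), Y87G2A.1 and Y87G2A.18 (0.0836 each, from 1 shared summit) and snb-1 (0.111). fbxl-1, for example, had 162 in the pooled list (rank 592), no partner within 100 bp in replicate 1 and 105 in replicate 2. Of the 5, snb-1 alone had a replicate 1 partner, with a signal of 20.1. The choice of genes rested on the matching distance, which was varied after the values were seen. Within 200 bp athp-1 had a replicate 1 partner with a signal of 54.0, and 0 of the 5 genes remained among the 5 nearest.

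A list of genes for PHD finger and AT-hook proteins, athp-1 among them, was examined at the promoter. Of 36 genes listed, 34 matched the annotation (attf-1 and flt-1 did not), and 4 of these (11.8%) were bound at the promoter by the reproducible list, against 4.71% of all protein-coding genes. Without athp-1 the count was 3 of 33 (9.09%). In a window from 1000 bp before to 500 bp after a 5′ end, 9 of the 34 were bound, against 6.22% of all genes. In the narrower window the bound genes were set-16, an H3K4 methyltransferase gene of the MLL type, with a signal of 909 (rank 2), ash-2, a COMPASS subunit gene, with 244 (rank 186), jmjd-1.2, a histone demethylase gene, with 237, and athp-1 with 162 (rank 582). The other 3 were known from earlier results when the list was written, so the count is not independent evidence. athp-1 had the weakest signal of the 4, and the related genes athp-2 and athp-3 were not bound.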

How the data were processed

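Peak lists of 2 ChIP-seq replicates on the ce11 genome were used. Readme texts deposited by the authors give the origin of each list: a replicate's own alignment with a further input, both replicates for the pooled list, and those 3 lists for the reproducible one. Aligner, caller, threshold and read depth were not given in the sources used here; the precision allowed by depth is therefore unknown. The signal value is the authors' score for a region, and it served to describe and rank regions within each list. Regions were not ranked by the deposited −log10 q-value, since 1393 pooled regions share its maximum. Lists on ce10 were not used.

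Summits are the deposited offset from the region start, written 1-based. Genes came from Ensembl release 115 on WBcel235, and sequence and products from RefSeq on the same build. The members, gene list and alternatives were chosen with earlier results of these data known. Named genes are the members, genes within 20 kb with a listed summit nearby, unc-119, bound genes of the PHD finger and AT-hook list, and the 5 genes most like athp-1; kel-3, egl-30 and cut-6 are named outside this rule. Shares over all genes are descriptions, not tests. Counting functions were tested on simulated data. Python 3.11.15, numpy 2.4.6, pandas 2.3.3, Biopython 1.88 and matplotlib 3.10.9 were used.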

Additional observations from a re-analysis of the deposited data

How the results depend on the processing

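Of 47 alternatives over 14 results, 27 left the value within the limits set (1.5 times for a count, the spread between replicates for a value). The 5 reproducible summits numbered 2 in the strongest 50% of the list. The 1649 strongest regions of each replicate also held 5 summits at the locus. In replicate 1 these were partly other sites, with athp-1 exons 6 and 9 and no athp-1 promoter summit, so that equal count does not show the same sites. Within 40 kb the pooled list held 34 summits and replicate 2 held 32; among the strongest 10000 regions the locus held 8 (pooled), 14 (replicate 1) and 10 (replicate 2). Pooled summits found in both replicates numbered 9 with summits within 200 bp (40.9%, against 41.1% of the whole list) and 14 with overlapping regions (63.6% against 54.9%). Members bound numbered 2 with the whole gene counted (6.62% of all genes) and 0 to 1 with 1 replicate left out (4.2 and 5% of all genes). In the whole pooled list, which includes background, 2 members had a summit in the promoter window (30.7% of all genes). That of C44B9.2 had a −log10 q-value of 0.483. The rank of the strongest region ran from 7 to 9 with 1 replicate left out. Median AT content was 55.4% over 50 bp on each side of a summit, and 59.5 to 66.4% with 1 replicate left out. The 59.5% is for the replicate 1 sites described above, which lack the athp-1 promoter, and not for the reproducible sites measured again. PHD finger and AT-hook genes bound numbered 9 in the window from 1000 bp upstream to 500 bp downstream, where 6.22% of all genes were called. Of the 5 genes most like athp-1, 0 remained with replicate summits matched within 200 bp. After the data were seen, replicate 1 regions in athp-1 without a pooled partner numbered 1 among the strongest 1000, where 3 other genes also held 1, and 7 without a limit. Summits in the athp-1 promoter windows numbered 1 in the strongest 50% of the list, and 0 to 3 with 1 replicate left out. In the 1649 strongest regions of replicate 1 the gene with 3 promoter summits was kel-3, not athp-1. In the reproducible list, with windows of 200 bp before to 200 bp after a 5′ end, athp-1 had 2 summits and 0 genes had 3. In the widest window of that list athp-1 and egl-30 each had 3. Among the 1649 strongest regions of replicate 1, athp-1 had 0 in each of these windows. Ranking by the other deposited columns was not run. One is constant, and the −log10 q-value is tied at its maximum for 84.5% of the reproducible list. That tie covers 4.64% of the pooled list, 1.45% of replicate 1 and 0.883% of replicate 2, and below the maximum the column varies. No paired analysis was possible because there was 1 group.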
